A study of Mus musculus with 6 samples.

Results

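A set of 10 genes that mark eosinophils or basophils, or that encode receptor chains used by both cells, was examined in RNA sequencing of whole mouse skin. They were chosen by gene symbol, and all 10 were found among the 23951 genes of the expression table. Of these, 5 were grouped as eosinophil genes (Epx, Prg2, Ear2, Ccr3 and Il5ra) and 3 as basophil genes (Mcpt8, Cd200r3 and Il3ra). The remaining members, Csf2rb and Csf2rb2, encode beta chains that pair with the cytokine-binding receptors of both cells. Which skin cells gave the reads of a member was not tested. The study set 3 control mice (JunB +/+) beside 3 JunB dep mice, all C57Bl/6 littermates whose skin was taken at 6 to 7 months of age. In JunB dep mice the transcription factor gene Junb is deleted in cells that express keratin 5, among them the basal keratinocytes of the epidermis, so that eosinophils, basophils and the other cells of the skin keep the gene. Mice of this genotype develop chronic skin inflammation, and the comparison asks which transcripts differ between their skin, described as lesional, and control skin. The 6 libraries are named here by genotype and by the replicate number of their labels, which is 0, 1 or 2 in each group.

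Eosinophils and basophils are granulocytes of the type 2 immune response, the arm of immunity directed against worms and active in allergy. Eosinophils store cationic granule proteins, follow the eotaxin chemokines through the receptor CCR3, and depend on interleukin-5 (IL-5), whereas basophils store proteases and histamine and respond strongly to interleukin-3 (IL-3). IL-3, IL-5 and granulocyte-macrophage colony-stimulating factor each bind an alpha chain of their own and then recruit a beta chain, and both cell types can enter allergically inflamed skin.

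The beta chain genes and the Ear genes have close copies, which bears on how reads can be assigned to them, and stretches of their coding sequences are shown for that reason. Csf2rb lies on the plus strand of chromosome 15 (mm9, chr15:78156420-78184277, 14 exons) and Csf2rb2 on the minus strand beside it (chr15:78112947-78136052, 14 exons). Over 2631 aligned coding bases the genes were identical at 2505, or 95.2%. Of the 4715 windows of 50 bases in the longest Csf2rb transcript, 18.7% also occurred in Csf2rb2. The stretch below is 100 bases of the coding sequence, counted from 1 at the start codon, from position 314 in Csf2rb and 317 in Csf2rb2, and its capitals mark the 17 positions at which the genes differ.
Csf2rb: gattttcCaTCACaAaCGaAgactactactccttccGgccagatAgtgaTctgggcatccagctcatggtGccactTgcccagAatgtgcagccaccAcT
Csf2rb2: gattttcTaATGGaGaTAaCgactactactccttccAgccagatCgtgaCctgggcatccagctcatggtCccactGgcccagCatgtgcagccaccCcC

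Ear2 lies on chromosome 14 (mm9, chr14:44680319-44681199, plus strand, 2 exons). Its coding sequence was identical to that of Ear1 over 95.7% of aligned bases and to that of Ear6 over 88.2%. Of 670 windows of 50 bases in the Ear2 transcript, 23.6% occurred also in Ear1 and 1.34% in Ear6. The stretches below cover coding positions 77 to 176 of the 3 genes, and capitals mark the 24 positions at which they are not all alike. Both sets of coding sequence come from the GENCODE transcripts of mm9.
Ear2: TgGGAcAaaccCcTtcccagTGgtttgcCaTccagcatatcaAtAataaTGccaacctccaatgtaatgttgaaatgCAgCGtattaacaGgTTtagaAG
Ear1: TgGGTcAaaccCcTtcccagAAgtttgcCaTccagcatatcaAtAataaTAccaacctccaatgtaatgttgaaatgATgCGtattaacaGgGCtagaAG
Ear6: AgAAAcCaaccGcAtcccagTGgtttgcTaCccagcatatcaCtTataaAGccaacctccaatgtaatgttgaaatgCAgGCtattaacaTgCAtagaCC

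The receptor genes Ccr3 and Il5ra were the members whose groups did not overlap, and their promoters are shown for that reason. Each sequence is the 250 bases before the start of the gene on its own strand, from RefSeq on GRCm38.p6. Capitals mark matches to the GATA motif, searched on both strands as AGATAA or its variant AGATAG and as TGATAA or its variant TGATAG, because GATA factors act in eosinophil and basophil development. The first window is chr9:124021721-124021970 on the plus strand, with matches beginning 64 and 30 bases before the start, and the second is chr6:106749038-106749287 on the minus strand, with 1 match beginning 74 bases before it.
Ccr3: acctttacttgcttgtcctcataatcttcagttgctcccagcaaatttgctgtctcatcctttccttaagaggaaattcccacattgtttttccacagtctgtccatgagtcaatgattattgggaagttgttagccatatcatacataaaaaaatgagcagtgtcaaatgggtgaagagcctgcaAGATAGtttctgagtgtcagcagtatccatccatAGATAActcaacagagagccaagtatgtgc
Il5ra: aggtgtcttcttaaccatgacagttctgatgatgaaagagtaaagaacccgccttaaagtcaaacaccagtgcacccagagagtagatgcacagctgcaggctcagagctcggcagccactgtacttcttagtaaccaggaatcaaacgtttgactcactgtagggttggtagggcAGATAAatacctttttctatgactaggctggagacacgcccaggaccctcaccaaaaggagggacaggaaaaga

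Of 32851 mouse promoters of this length, 26.5% held at least 1 match and 6.40% at least 2. Promoters of 8 members were in the table, without Prg2 and Csf2rb. Cd200r3 held 3 matches, of which 2 are side by side, Il3ra and Csf2rb2 held 1 each, and Epx, Ear2 and Mcpt8 held none. These matches describe letters in a window and not bound sites.

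Expression was deposited as FPKM, fragments divided by transcript length in kilobases and by mapped fragments in units of 1000000, in which levels of different genes can be compared per length. The smallest steps between low values fitted whole reads, and by these steps the libraries held 41.5 to 49.6 times 1000000 mapped fragments. Whole read numbers could be recovered for 7 members and not for Cd200r3, Csf2rb and Csf2rb2. Groups were compared with limma on log2(FPKM + 0.5), a scale that understates the change of low genes, over 17021 genes averaging 0.1 FPKM or more, and p-values were adjusted over all of these by the Benjamini-Hochberg method. An exact permutation test of 1 gene in 3 against 3 mice, two-sided, cannot give a p below 0.1. In bulk skin, fewer cells of a type and less RNA per cell cannot be told apart.

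A pair of libraries stood apart from the rest and touch several members. In the first, labelled JunB dep replicate 0, Junb was at 129.6 FPKM, above all 3 controls at 56.9 to 72.4 FPKM, whereas JunB dep replicates 1 and 2 were at 42.8 and 28.0 FPKM, so JunB dep is used for that library as a label and the JunB dep group is as labelled. Krt14, a basal keratinocyte keratin, and S100a9, a neutrophil calcium-binding protein, were listed at 0 in that library while Krt5 was at 3725 and S100a8 at 24456 FPKM, so an entry of 0 need not mean that a transcript was missing. The median of 10 markers shared by all leukocytes lay 1.26 above the control mean (log2) in that library. In JunB dep replicates 1 and 2 it was below the control mean, at -1.30 and -0.29. S100a8 was at 13.0 and 65.6 FPKM in those replicates, against 8.15 to 744 FPKM in the controls. How inflamed the skin of each library was, and whether this bears on the members, was not tested. Control replicate 0 had medians 2.53 above the control mean for 8 red blood cell genes and 3.35 above it for 12 neutrophil genes. Keratinocyte genes, which check the tissue label, summed to 8173 to 13800 FPKM in all 6 libraries.

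No member was called as changed between JunB dep and control skin. Of the 10, 9 passed the filter on low values, 0 of the 9 had an adjusted p below 0.05 in limma, and 0 had an unadjusted p below 0.05. Over all 17021 tested genes, 1.38% were called, all of them lower in JunB dep skin (of 131 without the library labelled JunB dep replicate 0, 11 were higher), and 0 genes were called without any 1 of the controls or without JunB dep replicate 1. The fold changes ranged from -1.59 for Ear2 to 0.55 for Csf2rb on the log2 scale, 7 of 9 being below 0, and their median was -0.05 beside 0.03 for all tested genes. The members Ccr3 and Il5ra were lower in every JunB dep library than in every control, 2 of 9 beside 9.16% of all tested genes. The highest value of a member was in control replicate 0 for 5 of the 10 genes and in the library labelled JunB dep replicate 0 for 3, where the shares of all tested genes were 12.1% and 29.7%.

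**Figure D1:**
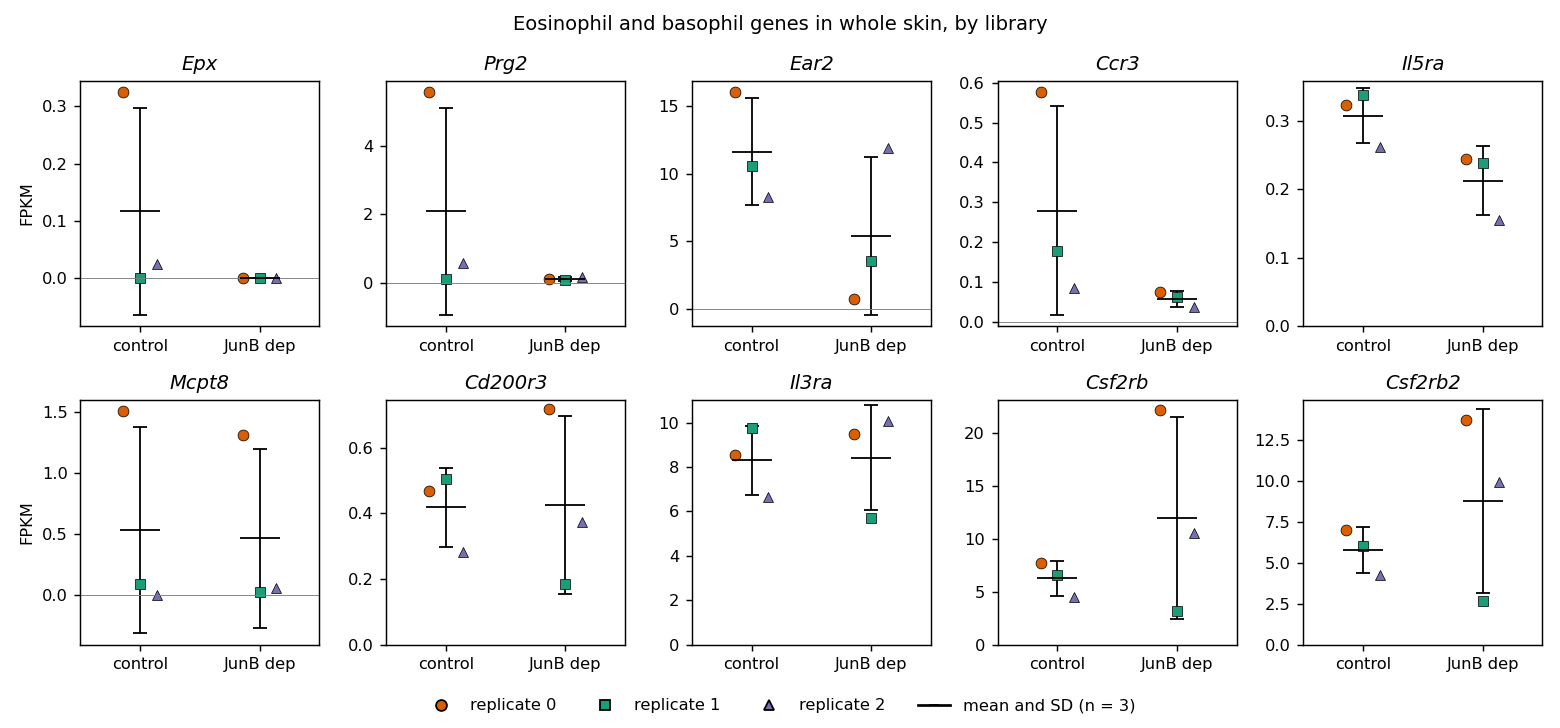
FPKM (vertical axes, 1 scale per gene) of the 10 genes in the 3 control and 3 JunB dep libraries, with the mean and SD of each group (n = 3). Prg2 is at 5.58 FPKM in control replicate 0 and at or below 0.580 FPKM in the other 5 libraries, and Csf2rb is highest, at 22.2 FPKM, in the library labelled JunB dep replicate 0.

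Epx and Prg2 encode granule proteins of the eosinophil, and their transcripts were scarce in 5 of the 6 mice. Epx, eosinophil peroxidase (chr11:87677502-87689038, minus strand, 13 exons), was at 0.325, 0 and 0.0236 FPKM across control replicates 0, 1 and 2 and listed at 0 in all 3 JunB dep libraries. These values correspond to 38, 0 and 3 reads in the controls and to 0 reads in each JunB dep library, where 0 reads, if counted as such, allow up to 3 reads, or 0.0225 to 0.0266 FPKM. A listed 0 that was a failed estimate sets no such limit. Control replicate 0 carried most of the reads and control replicate 1 had none, so the groups overlapped. Epx had a mean of 0.0581 FPKM, below the filter, and by itself gave a difference of -0.26 on the log2(FPKM + 0.5) scale (exact permutation p = 0.4).

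Prg2, which encodes major basic protein (chr2:84820618-84823789, plus strand, 6 exons), was at 5.58, 0.115 and 0.580 FPKM across control replicates 0, 1 and 2. In the JunB dep libraries it was at 0.107, 0.0722 and 0.171 FPKM. Control replicate 0, with 203 reads, or 83.5% of those in all 6 libraries, stood alone, and control replicate 1, with 4 reads, lay within the JunB dep range of 3 to 6 reads. The group means were 2.09 ± 3.03 FPKM (SD, n = 3) in control and 0.117 ± 0.0502 FPKM (n = 3) in JunB dep skin. The log2 fold change was -1.37 ± 0.82 (SE; adjusted p = 0.722 in limma, exact permutation p = 0.2), -0.41 without control replicate 0 and -2.06 without control replicate 1.

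Several genes of other blood cells were also highest in control replicate 0, where both granule genes were highest. Mpo and Elane, granule enzymes of early neutrophils, were at 32.0 and 35.7 FPKM in control replicate 0 and at no more than 0.0615 and 1.43 FPKM in the other 5 libraries. They are 2 of the 12 neutrophil genes in the table, of which 5 were highest in control replicate 0, 6 in the library labelled JunB dep replicate 0 and 1, Ltf, in control replicate 2. Gata1, a transcription factor of eosinophil and red cell precursors, gave 288 reads there and 11 to 26 reads elsewhere, and Cebpe, a factor of granulocyte maturation, gave 224 reads there and 4 to 14 elsewhere. Of 8 red blood cell genes, 7 had their highest value in control replicate 0, and the list summed to 103.0 to 2209 FPKM in the controls and to 48.8 to 203.4 FPKM in JunB dep libraries. Of the 11 genes listed as eosinophil markers, 10 were in the table and 6 of these were highest in that library, but 4 of the 6 are the members Epx, Prg2, Ear2 and Ccr3 themselves. Of the others, Prg3, a relative of Prg2, was at 0.218 FPKM there and listed at 0 in the other 5. The part of these other cells in the Epx and Prg2 values was not tested. The 3 genes with the pattern across the 6 libraries most like that of Prg2 were Cpn2, Klf1 and Cyp2b23, with root mean square differences of 0.265, 0.275 and 0.288 on the centred log2 scale.

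Ear2 encodes an eosinophil-associated ribonuclease, and it was the most abundant of the eosinophil members. It was at 16.0, 10.6 and 8.27 FPKM across control replicates 0, 1 and 2 (499, 315 and 280 reads). The library labelled JunB dep replicate 0 had 0.687 FPKM from 22 reads, and replicates 1 and 2 had 3.52 and 11.9 FPKM from 125 and 357 reads. A pair of JunB dep libraries thus lay below every control and the third lay above 2 of them, so that the groups overlapped. The log2 fold change was -1.59 ± 0.84 (SE; adjusted p = 0.722 in limma, exact permutation p = 0.3), and it was -0.73 without the library labelled JunB dep replicate 0 and -2.42 without JunB dep replicate 2. Sample names fall into a 23x and a 27x number series. The 23x series holds control replicates 0 and 1 and the library labelled JunB dep replicate 0. The 27x series holds control replicate 2 and JunB dep replicates 1 and 2. The difference was -3.51 within the former, with 1 JunB dep library, and -0.31 within the latter, with 1 control.

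The close relatives of Ear2 moved otherwise in that library. Ear6 was at 2.04, 0.609 and 0.683 FPKM in the controls and at 55.1, 0.991 and 0.671 FPKM in libraries labelled JunB dep replicates 0, 1 and 2, so that 1754 of its reads were in the library with the lowest Ear2 value. Ear1 had 15, 0 and 3 reads in controls and 57, 0 and 3 reads in JunB dep libraries. The 3 genes summed to 9.04 to 18.6 FPKM in the controls and to 57.5, 4.51 and 12.7 FPKM in the JunB dep libraries. Ear6 differed by 1.62 ± 1.502 on the log2 scale (SE; adjusted p = 0.730 in limma). Ear10, which shared 26.0% of the Ear2 windows, was listed at 0 in every library. Reads from the windows that Ear2 shares with Ear1 or Ear10, none of which lies within the printed stretch of Ear1, match more than 1 gene, and the split of reads among these genes is uncertain.

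**Figure D2:**
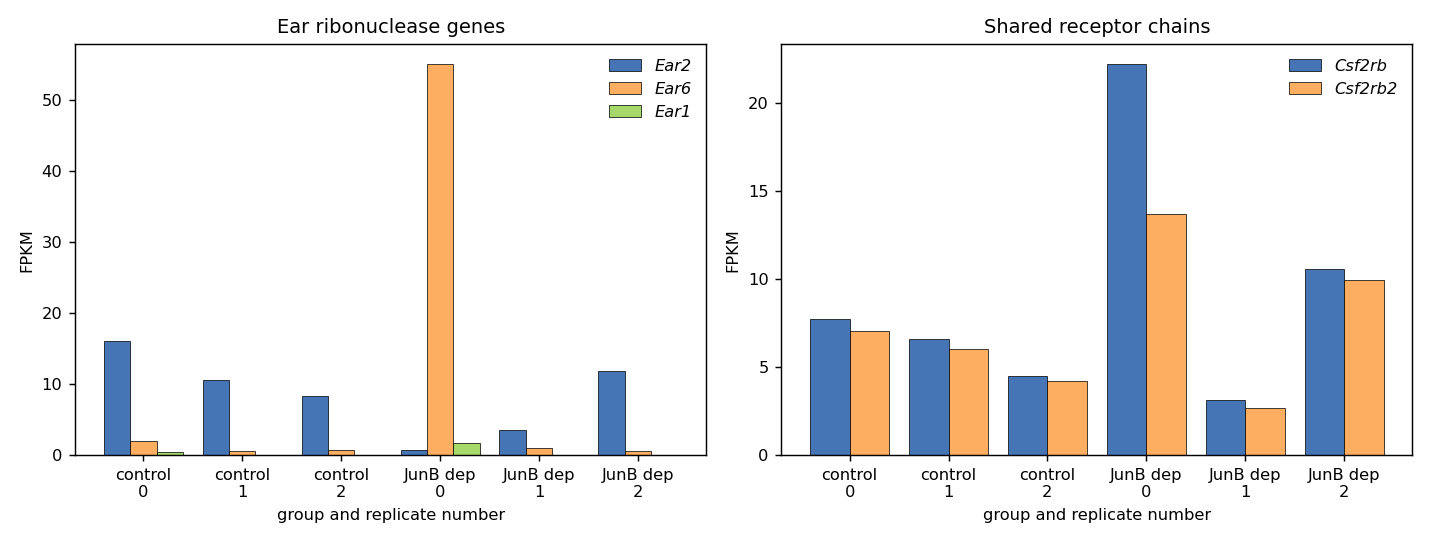
FPKM (vertical axis) of the Ear2, Ear6 and Ear1 ribonuclease genes and of Csf2rb and Csf2rb2 in each of the 6 libraries, 1 bar per gene and library without error bars. Ear6 reaches 55.1 FPKM in the library labelled JunB dep replicate 0, in which Ear2 is at 0.687 FPKM, and Csf2rb is above Csf2rb2 most clearly in that library.

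Serpina3c, Fn3k and Slc2a12 had the patterns most like that of Ear2, with root mean square differences of 0.159, 0.214 and 0.218 over the 6 libraries. Serpina3c, for example, was at 14.1 to 22.4 FPKM in the controls and at 1.31, 6.83 and 19.9 FPKM in libraries labelled JunB dep replicates 0, 1 and 2, the same order of libraries within the JunB dep group.

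Ccr3 and Il5ra, the eosinophil receptors for eotaxins and for IL-5, were the members with separate groups, both at low levels. Ccr3 (chr9:123936703-123946421, plus strand, 2 exons) was at 0.577, 0.177 and 0.0840 FPKM across control replicates 0, 1 and 2, from 82, 24 and 13 reads. In libraries labelled JunB dep replicates 0, 1 and 2 it was at 0.0751, 0.0616 and 0.0365 FPKM, from 11, 10 and 5 reads. All 3 JunB dep values lay below the lowest control, although the gap between 0.0840 and 0.0751 FPKM was 13 against 11 reads. The difference was -0.43 ± 0.25 on the log2(FPKM + 0.5) scale (SE; adjusted p = 0.722 in limma), the exact permutation p was 0.1, the smallest this design can give, and without control replicate 0 the difference was -0.17. It was -0.57 within the 23x series of sample names, whose only JunB dep library is the one labelled replicate 0. Within the 27x series, whose only control is replicate 2, it was -0.09.

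Il5ra, the alpha chain of the IL-5 receptor (chr6:106660378-106695103, minus strand, 11 exons), was at 0.324, 0.339 and 0.262 FPKM in the controls, from 50, 50 and 44 reads. It was at 0.245, 0.238 and 0.155 FPKM in libraries labelled JunB dep replicates 0, 1 and 2, from 39, 42 and 23 reads. The JunB dep libraries were all below the controls, with a narrow spread in both groups (0.308 ± 0.0409 against 0.213 ± 0.0505 FPKM, SD, n = 3). The log2 difference was -0.18 ± 0.15 (SE; adjusted p = 0.722 in limma, exact permutation p = 0.1). It changed little without either library that stood apart, being -0.17 without control replicate 0 and -0.22 without the library labelled JunB dep replicate 0. The difference was -0.16 within the 23x series, which holds both of those libraries, and -0.13 within the 27x series. Each series has 1 library on 1 side of the comparison.

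**Figure D3:**
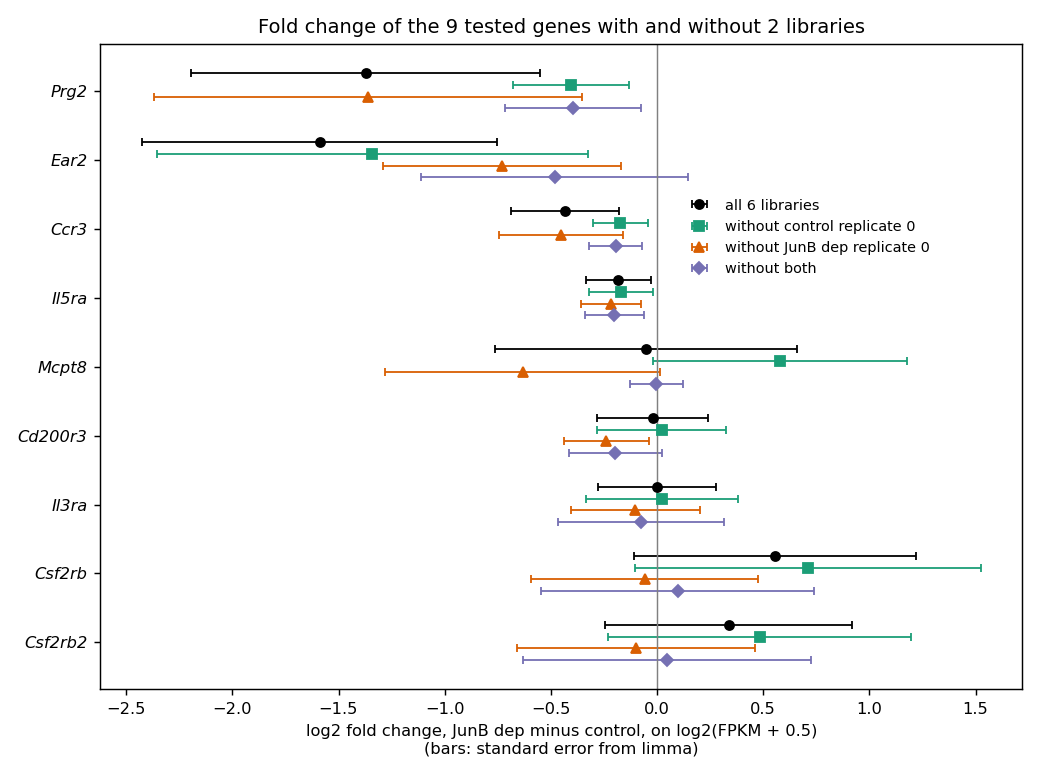
Log2 fold change of the 9 tested genes (horizontal axis, JunB dep minus control, bars give the standard error from limma) over all 6 libraries and without control replicate 0, the library labelled JunB dep replicate 0, or both. The value of Prg2 moves from -1.37 to -0.41 without control replicate 0, while that of Il5ra stays between -0.22 and -0.17.

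The basophil members did not separate the groups. Mcpt8, a protease of mouse basophils (chr14:56701003-56704053, minus strand, 5 exons), was at 1.51, 0.0861 and 0 FPKM across control replicates 0, 1 and 2, from 55, 3 and 0 reads. The library labelled JunB dep replicate 0 had 1.31 FPKM from 49 reads, and replicates 1 and 2 had 0.0240 and 0.0569 FPKM from 1 and 2 reads. In each genotype 1 library held nearly all of the reads and the remaining libraries had 3 reads or fewer, the floor up to which a transcript was not taken as reliably detected. The log2 difference of -0.05 ± 0.71 (SE; adjusted p = 0.982 in limma, exact permutation p = 0.8) became 0.58 without control replicate 0 and -0.63 without the library labelled JunB dep replicate 0. Etnk2, Treml2 and F7 had the patterns most like it, with root mean square differences of 0.0914, 0.138 and 0.179.

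The same pair of libraries had the highest neutrophil values, with medians of 12 neutrophil genes 3.35 and 2.17 above the control mean (log2) and from -1.98 to -0.41 in the other 4. That list summed to 41.0 to 1920 FPKM in the controls and to 29.4 to 25033 FPKM in JunB dep libraries, with S100a9 and Elane listed at 0 in the library labelled JunB dep replicate 0. Whether this bears on the Mcpt8 reads was not tested.

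Cd200r3, an activating receptor of basophils and mast cells (chr16:44943791-44981493, plus strand), was at 0.468, 0.506 and 0.282 FPKM in the controls and at 0.719, 0.186 and 0.373 FPKM in libraries labelled JunB dep replicates 0, 1 and 2. The highest and the lowest value were both in JunB dep skin. The log2 difference was -0.02 ± 0.26 (SE; adjusted p = 0.982 in limma, exact permutation p = 1). Il3ra, the alpha chain of the IL-3 receptor (chr14:15179009-15188004, plus strand, 12 exons), was the basophil member with the highest level, at 8.54, 9.75 and 6.64 FPKM in the controls and 9.48, 5.73 and 10.1 FPKM in libraries labelled JunB dep replicates 0, 1 and 2. Its libraries held 396 to 591 reads each, so counting error was small beside the spread between mice. The group means were 8.31 ± 1.56 and 8.43 ± 2.36 FPKM (SD, n = 3), and the log2 difference was -0.00269 ± 0.28 (SE; adjusted p = 0.997 in limma, exact permutation p = 1).

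The wider list of basophil markers gave no call either. Of its 12 genes, which include the 3 basophil members, 11 were in the table and 10 were tested, 0 were called, 8 were lower and 2 higher, and the median log2 fold change was -0.10. Prss34, a basophil protease, gave 96, 21 and 17 reads in controls and 31, 26 and 12 in libraries labelled JunB dep replicates 0, 1 and 2. Fcer1a, the alpha chain of the high-affinity IgE receptor, was at 0.721 to 1.86 FPKM in the controls and at 9.26, 0.747 and 2.51 FPKM in libraries labelled JunB dep replicates 0, 1 and 2, and Hdc, the histamine-forming enzyme, was at 2.89 to 4.71 FPKM and at 70.7, 3.34 and 6.27 FPKM. Both were highest by far in the library labelled JunB dep replicate 0, in which Mcpt8 and Prss34 were below control replicate 0 only. Of the 11 genes in the table, 4 were highest in that library. Gata2 was at 1.90 FPKM there, below the controls at 2.70 to 5.78 FPKM. Cpa3 was at 24.2 FPKM, within the controls at 20.8 to 37.7 FPKM. Ms4a2, at 0.954 FPKM, was also within the control range of 0.900 to 1.26 FPKM. The basophil genes Cpa3, Fcer1a, Hdc and Ms4a2 also stand in the list of 11 mast cell genes, of which 0 were called, with a median of -0.34.

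Csf2rb and Csf2rb2 encode the common beta chain and the beta chain that serves IL-3 alone, and they followed each other across the libraries. Csf2rb was at 7.71, 6.60 and 4.48 FPKM across control replicates 0, 1 and 2, against 22.2, 3.15 and 10.6 FPKM in libraries labelled JunB dep replicates 0, 1 and 2. Csf2rb2 was at 7.03, 6.03 and 4.23 FPKM in the controls and at 13.7, 2.66 and 9.93 FPKM in libraries labelled JunB dep replicates 0, 1 and 2. For both genes a pair of JunB dep libraries lay above every control and the third below every control. The spread within JunB dep skin (SD 9.62 and 5.62 FPKM) was larger than the difference of the means, 6.263 against 11.99 FPKM for Csf2rb and 5.761 against 8.769 FPKM for Csf2rb2.

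Neither difference passed the test. Csf2rb differed by 0.55 ± 0.66 (SE; adjusted p = 0.783 in limma, exact permutation p = 0.6) and Csf2rb2 by 0.34 ± 0.58 (adjusted p = 0.844, exact permutation p = 0.7) on the log2 scale, and without the library labelled JunB dep replicate 0 the values were -0.06 and -0.10. Without JunB dep replicate 1 they were 1.26 and 0.99, and with a block on the number series of the sample names 0.96 and 0.65. The ratio of Csf2rb to Csf2rb2 was 1.10, 1.09 and 1.06 in controls and 1.62, 1.18 and 1.07 in libraries labelled JunB dep replicates 0, 1 and 2. On the log2(FPKM + 0.5) scale this ratio was 0.11 ± 0.03 in controls and 0.32 ± 0.31 in JunB dep skin (SD, n = 3; difference 0.22, exact permutation p = 0.3), and the difference was 0.04 without the library labelled JunB dep replicate 0. The genes share identical stretches, so that some reads could be assigned to either.

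Leukocyte genes followed the beta chains in some libraries and not in others. Of the 10 markers of all leukocytes, 9 were highest in the library labelled JunB dep replicate 0, and their median was lowest, at -1.30, in JunB dep replicate 1, where both beta chains were lowest too. The list summed to 195.2 to 362.2 FPKM in the controls and to 126.1 to 595.3 FPKM in JunB dep libraries, with 0 of 10 called and a median of -0.06. Ptprc, which encodes the pan-leukocyte antigen CD45, was at 4.79 to 8.21 FPKM in the controls and at 15.9, 2.13 and 4.64 FPKM in libraries labelled JunB dep replicates 0, 1 and 2. In JunB dep replicate 2 the beta chains and the leukocyte markers parted, with a median of 0.75 for the beta chains, which lay above every control, and of -0.29 for the leukocyte markers. Relative to the mean log2 value of the leukocyte markers in each library, Csf2rb differed by 0.60 ± 0.96 and Csf2rb2 by 0.38 ± 0.97 (SE). That scaling shifts the group difference of every gene by the same small amount, so it does not test the part of leukocyte content in the beta chain values. The genes with patterns most like Csf2rb were Ccl6, Lrrc32 and Batf, with root mean square differences of 0.117, 0.169 and 0.177.

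Relative to control skin, the 3 kinds of members ran apart in the library labelled JunB dep replicate 0. The median of the 4 tested eosinophil members there was -0.89 on the log2 scale, that of the 3 basophil members 0.42 and that of the 2 beta chains 1.49. In JunB dep replicate 1 all 3 medians were below the control mean, at -0.95, -0.48 and -0.91, and in replicate 2 they were -0.40, -0.06 and 0.75. The wider eosinophil list, with 8 tested genes that include these 4 members, had medians of -0.15, -0.41 and -0.24 in libraries labelled JunB dep replicates 0, 1 and 2. The medians of the eosinophil members were thus below 0 in all 3 JunB dep libraries. So were those of control replicates 1 and 2, at -0.12 and -0.39, the control mean being raised by replicate 0 at 0.51. Members of the same kind could part within a library. Control replicate 1 had 315 Ear2 reads beside 0 for Epx, and control replicate 2 had 438 Il3ra reads beside 0 for Mcpt8.

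**Figure D4:**
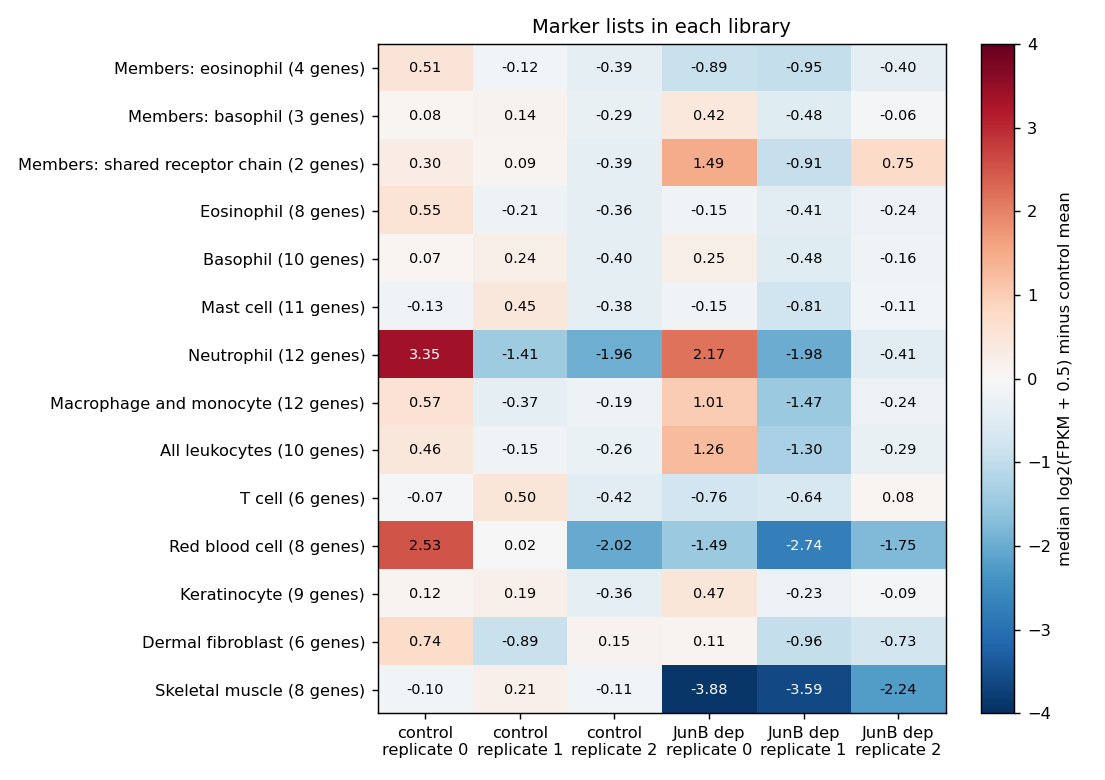
Median of log2(FPKM + 0.5) minus the control mean (colour and printed value) for the members by kind and for marker lists of other cell types, in each of the 6 libraries. Eosinophil members are at 0.51 in control replicate 0 and at -0.89, -0.95 and -0.40 in the JunB dep libraries, and skeletal muscle genes are at -3.88 to -2.24 in the JunB dep libraries.

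Among the marker lists, calls were made for muscle. Of 8 skeletal muscle genes, 6 were called lower in JunB dep skin, with a median log2 fold change of -3.23 and sums of 16886 to 23093 FPKM in the controls against 1613 to 3910 FPKM. No gene was called in the list of eosinophil genes (8 tested, median -0.22), of which 4 tested genes are members, or in those of neutrophil (12, -0.38), macrophage and monocyte (12, -0.35), red blood cell (8, -1.89), T cell (6, -0.42), keratinocyte (9, 0.04) or dermal fibroblast genes (6, -0.70). How much the unequal muscle content shifts the FPKM of the members was not tested.

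The signals that act on the members were read from a list of 11 ligands and attractants, of which 9 were tested, 0 were called and 2 had an unadjusted p below 0.05, both lower, with a median of -0.25. Background was 6.13% lower and 1.43% higher at that unadjusted threshold. Ccl24, which encodes eotaxin-2, a ligand of CCR3, was at 10.9, 8.45 and 5.95 FPKM across control replicates 0, 1 and 2, against 3.52, 3.38 and 3.43 FPKM in libraries labelled JunB dep replicates 0, 1 and 2. The JunB dep libraries were nearly alike, at 185 to 216 reads, and all lay below the controls at 363 to 608 reads. The log2 difference was -1.14 ± 0.26 (SE; unadjusted p = 0.0041, adjusted p = 0.161 in limma), and it was -0.95 without control replicate 0.

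Ccl11, eotaxin-1, was at 41.5, 52.6 and 31.2 FPKM in the controls and at 20.1, 10.99 and 31.3 FPKM in libraries labelled JunB dep replicates 0, 1 and 2 (log2 difference -1.08, adjusted p = 0.585 in limma). JunB dep replicate 2 lay at the level of control replicate 2, so the groups overlapped. Ccl7, a further CCR3 ligand that also attracts monocytes, was at 4.13 to 10.6 FPKM in the controls and at 34.4, 2.70 and 4.12 FPKM in libraries labelled JunB dep replicates 0, 1 and 2. Means in JunB dep skin were thus lower for the eotaxins and Ccr3 and higher for Ccl7, at 13.8 against 7.29 FPKM. Of the Ccr3 reads, 56.6% were in control replicate 0. No adjusted p among the eotaxins and Ccr3 was below 0.05.

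**Figure D5:**
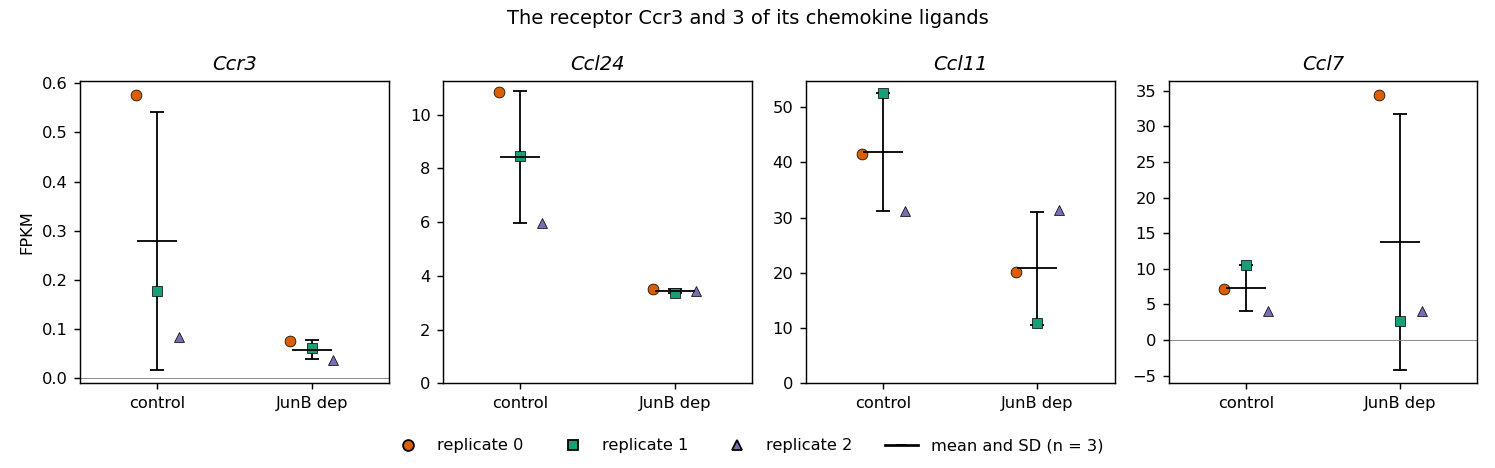
FPKM (vertical axes, 1 scale per gene) of Ccr3 and of its ligand genes Ccl24, Ccl11 and Ccl7 in the 3 control and 3 JunB dep libraries, with the mean and SD of each group (n = 3). Ccr3 and Ccl24 do not overlap between the groups, with Ccl24 at 5.95 to 10.9 FPKM in the controls and 3.38 to 3.52 FPKM in JunB dep skin, whereas Ccl11 and Ccl7 overlap.

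Transcripts of Il5, Il3 and Csf2, whose cytokines act through the receptor members, were at low levels. Il5 gave 9, 4 and 5 reads in controls and 4, 5 and 7 reads in libraries labelled JunB dep replicates 0, 1 and 2, and Il3 was listed at 0 in all 6 libraries. Csf2, which encodes granulocyte-macrophage colony-stimulating factor, was at 0.822 FPKM in the library labelled JunB dep replicate 0 and at 0.0614 to 0.117 FPKM in the other 5. Il33 and Tslp, epithelial cytokines that activate both granulocytes, were at 13.9 to 26.1 and 3.67 to 5.15 FPKM in the controls, at 79.7 and 12.5 FPKM in the library labelled JunB dep replicate 0, and at no more than 10.9 and 3.22 FPKM in JunB dep replicates 1 and 2. For both genes the JunB dep libraries lay on either side of all 3 controls.

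Of 14 receptors and signal partners, 0 were called, 8 were higher and 6 lower, and the median log2 fold change was 0.12. Csf2ra, the alpha chain that joins the common beta chain to bind granulocyte-macrophage colony-stimulating factor, was at 9.55 to 14.5 FPKM in the controls and at 20.1, 8.55 and 15.1 FPKM in libraries labelled JunB dep replicates 0, 1 and 2. Its order of libraries within JunB dep skin was that of Csf2rb. Il1rl1, the IL-33 receptor, was at 0.856 to 1.62 FPKM in the controls and at 18.5, 0.707 and 1.33 FPKM in libraries labelled JunB dep replicates 0, 1 and 2. Stat5b, a signal transducer below the beta chains, was the 1 gene of the list with an unadjusted p below 0.05, at 14.2 to 17.01 FPKM in the controls and 7.44 to 13.1 FPKM in JunB dep skin (log2 difference -0.77 ± 0.26, SE, adjusted p = 0.487 in limma).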

How the data were processed

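RNA sequencing of poly(A) RNA was performed on whole skin of 3 control and 3 JunB dep mice with stranded libraries. The authors aligned the reads to mm9 with TopHat 2.0.10, Bowtie 1.0.0 and SAMtools 0.1.19 and deposited FPKM values per gene and mouse, with FastQC and Cufflinks also in the submitters' processing notes. Any additional scaling of the libraries against each other is not stated in these sources. The authors tested read counts with DESeq2, and those counts were not analysed here.

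FPKM values were tested on the log2(FPKM + 0.5) scale by limma 3.58.1 (R 4.3.3; trended variance, no block) in the 17021 genes averaging 0.1 FPKM or more, two-sided, with Benjamini-Hochberg adjustment at 0.05. Differences of single genes were also tested by the exact two-sided permutation test over the 6 libraries. The fit was also run on simulated data, in which it missed small changes, so a gene that was not called may still differ. The members and gene lists were chosen with earlier results of these data known. All members are named, with genes of the lists of ligands, receptors, relatives and cell type markers and the 3 genes of most similar pattern for 4 members.

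Whole reads were recovered from the FPKM steps where all 6 values were within 0.05 of a whole number of reads and the implied length within 15% of an annotated transcript. A gene with 3 reads or fewer was not taken as reliably detected, and these numbers cover counting error only. Positions on mm9 were taken from GENCODE vM1 and promoters from RefSeq on GRCm38.p6. Figures were drawn with matplotlib 3.10.9 in Python 3.11.15. Alternatives were other pseudocounts, filters and scalings, limma without the trend or robust, blocks on the replicate number and on the number series of the sample names, values relative to the leukocyte markers, and each library left out. Leaving out control replicate 0 and the library labelled JunB dep replicate 0 together was added after the data were seen.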

Additional observations from a re-analysis of the deposited data

How the results depend on the processing

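No member was called under any of the alternatives run, nor at an adjusted p of 0.1. Without JunB dep replicate 1, 2 members had an unadjusted p below 0.05 in limma. Without JunB dep replicate 2 and without control replicate 1 it was 1 member each, and in the other fits 0. Of 184 alternative fold changes of members, 21 reversed and the others kept their direction, some at a much smaller size, as the ranges of Prg2, Ear2, Ccr3 and Epx show. Mcpt8 was at 0.0305 after quantile normalization and 0.42 with a block on the number series, and leaving out 1 library gave -0.63 to 0.58 (0.58, 0.26 and 0.21 without control replicate 0, JunB dep replicate 1 and JunB dep replicate 2). Cd200r3 was at 0.0704 after quantile normalization, 0.14 with the number series block and 0.0207 relative to leukocyte markers, and leaving out 1 library gave -0.24 to 0.18. Il3ra was at 0.0107 after rescaling to equal sums, 0.0124 after quantile normalization, 0.12 with the number series block and 0.0383 relative to leukocyte markers, and leaving out 1 library gave -0.15 to 0.24. Csf2rb and Csf2rb2 were at 0.96 and 0.65 with the number series block. Csf2rb ranged from -0.0578 to 1.26 and Csf2rb2 from -0.0982 to 0.99 with 1 library left out, the low ends without the library labelled JunB dep replicate 0 and the high ends without JunB dep replicate 1. The fold changes of Prg2 (-2.14 to -0.40), Ear2 (-2.42 to -0.48), Ccr3 (-1.05 to -0.17), Il5ra (-0.39 to -0.11) and Epx (-0.80 to -0.03) stayed below 0.

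Over all tested genes, 235 were called, 166 with no filter, 29 relative to the leukocyte markers (12 higher, 17 lower) and 0 when either the replicate number or the number series was a block. Leaving out 1 library gave 0 to 251 calls: 0 without any 1 of the controls or without JunB dep replicate 1, 131 without the library labelled JunB dep replicate 0 and 251 without JunB dep replicate 2. In the fits with 0 calls, limma gave an unadjusted p below 0.05 to 741 to 884 genes lower and 68 to 270 higher when libraries were left out, and to 854 lower and 118 higher with the replicate block and 1077 lower and 446 higher with the number series block. Without both control replicate 0 and the library labelled JunB dep replicate 0, chosen after seeing the data, 0 were called. The cause was not tested. Deviations of same-numbered libraries from their group means correlated at 0.12, -0.23 and -0.43, so the replicate numbers were not taken to pair the mice. The block changed no call of a member. For the ratio of Csf2rb to Csf2rb2, the block cannot alter the difference of 0.22 in this balanced design, and its exact permutation p of 0.25 is the smallest that 3 pairs can give. The ratio difference was 0.04 to 0.33 with 1 library left out, lowest without the library labelled JunB dep replicate 0.

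Epx, Prg2, Mcpt8 and Ccr3 were at low read numbers in most libraries, which limits the precision of their values. Pairs of genes with shared stretches are limited by read assignment as well.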

Other observations

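Relatives of the members in the same gene families gave further values. Of 29 such genes, 26 were in the table and 17 were tested, 0 were called, and 11 of the 26 had their highest value in the library labelled JunB dep replicate 0. Mcpt1 and Mcpt2, proteases of mucosal mast cells, gave 0, 0 and 2 and 1, 0 and 8 reads in controls, and 32, 3 and 0 and 105, 0 and 1 reads in libraries labelled JunB dep replicates 0, 1 and 2. Mcpt4, a protease of connective tissue mast cells, was instead highest in control replicate 1, at 130.1 FPKM, and was at 46.4 FPKM in the library in which Mcpt1 and Mcpt2 were highest. Ccr1, a chemokine receptor related to Ccr3 that neutrophils and monocytes carry, was at 0.381 to 1.41 FPKM in controls and at 21.9, 0.292 and 0.979 FPKM in libraries labelled JunB dep replicates 0, 1 and 2, in none of which Ccr3 exceeded 0.0751 FPKM.

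Cd200r1, the inhibitory receptor of the Cd200r family, was at 2.14, 0.803 and 1.42 FPKM in controls and at 0.981, 0.234 and 0.606 FPKM in libraries labelled JunB dep replicates 0, 1 and 2. Lpo, lactoperoxidase, a relative of Epx, was at 159.0 FPKM in control replicate 2, at 12.1 FPKM in the library labelled JunB dep replicate 0 and at 0.272 to 0.511 FPKM in the other 4. Alox15, the lipoxygenase counted among the eosinophil genes, was at 0.289 to 1.59 FPKM in controls and at 1.16, 2.25 and 0.772 FPKM in libraries labelled JunB dep replicates 0, 1 and 2, and Siglec5, listed for Siglec-F, at 0.105 to 0.431 and at 0.178, 0.0753 and 0.181 FPKM.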
